A study of Mus musculus with 10 samples.

Results

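PyMt cells, a mouse breast cancer cell line, were grown in supernatants of CD4+ T cells, and the libraries tagged Test1 were compared with those tagged Test2. These are 4 of the 10 libraries of the series, 2 in each set, and their members are the columns that carry these tags. All 4 came from the same PyMt line, derived from tumors of MMTV-PyMt mice (the mammary tumor virus promoter drives polyoma middle T antigen in mammary epithelium) on a C57BL/6 background, and all 4 were cultured in 3D on low-adherence plates in test CD4+ T supernatant. Test supernatant came from CD4+ T cells sorted from Tslp-PyMttg mice, which carry a Tslp transgene under the keratin 14 promoter. These T cells were stimulated ex vivo through CD3 and CD28 with added TSLP, in repeated rounds with rest between them. Per the study's methods, supernatant was taken when each round of stimulation ended. What distinguishes Test1 from Test2 is not given in the labels. A difference between the sets thus cannot be assigned to a batch of supernatant, a stimulation round, a T cell donor or a culture. The other sets are Test3, also in test supernatant, and Control and Blank, both titled as control supernatant (T cells of Tslp-PyMttg TslprKO or PyMttg mice), with the tag Blank unexplained. The study's methods instead give the T cell donors as Tslptg mice for test and TslprKO mice for control. Its account of RNA sequencing does not name the culture format of the sequenced cells. Nothing states that the 2 libraries of a set were separate cultures, so p-values cover only how far the 2 libraries of a set lie apart, possibly a technical spread. With 2 libraries against 2, an exact two-sided permutation test cannot give a p below 0.333, and the tests below rest on the spread shared across the genes and sets.

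Expression was deposited as FPKM, mapped fragments scaled by transcript length and library depth, for 17171 genes, of which 11028 had at least 1 FPKM in at least 2 of the 4 libraries and were tested on the scale of log2(FPKM + 1). This scale understates the change of low genes. The spacing of low FPKM values put depth at roughly 11.6 and 14.3 M fragments (M, mega) in Test1-1 and Test1-2 and 14.2 and 11.6 M in Test2-1 and Test2-2. FPKM summed to 414783 to 449353 in 9 libraries and to 487591 in Test2-1, which stands apart. Test1-1 had the fewest genes above 0 of the 10, at 14074. The luminal keratins Krt8 and Krt18 lay at 826 to 986 and 1382 to 1882 FPKM in the 4 libraries, while Epcam was at 4.97 to 8.19, so the epithelial label rests mainly on keratins. Of the T cell markers, 10 are in the table and 3 were tested, among them Cd3d at 2.25 to 5.67 FPKM and Cd247 at 3.16 to 7.29, while Lck was at 0 to 0.2.

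As background, activated CD4+ T cells of the T helper 2 type secrete IL-4 and IL-13, which act on epithelial cells through receptors containing the chains Il4ra and Il13ra1 and activate STAT6. The same cells can also release TNF and IFN-gamma, which act on epithelial cells through receptors of their own. Tumor cells exposed to such cytokines respond with cytokines, proteases and matrix proteins of their own.

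Between Test1 and Test2, 13 genes were higher in Test1 (0.118% of the 11028 tested) and 6 were higher in Test2 (0.0544%). The 13 genes encode cytokines (Il6, Csf1, Csf2, Tslp), cytokine receptors or decoys (Il13ra2, Il1rl1, Tnfrsf11b), a protease and a protease inhibitor (Mmp13, Serpinb2), a matrix protein (Tnc), an amino acid transporter (Slc7a2), a retinal dehydrogenase (Aldh1a3) and a gap junction protein (Gjb2). Mmp13 and Gjb2 reached the FPKM minimum in Test1 alone, which favors a difference in that direction, and are set apart in what follows. In the other 11 genes the mean FPKM in Test1 was 2.00 to 4.16 times that in Test2, and the log2 differences ran from 1.01 to 1.85 (adjusted p = 0.00559 to 0.0381 from limma). The 6 genes higher in Test2 were Trib2, Apol6, Ramp3, Cpt1a, the gene model 0610010B08Rik and the microRNA gene Mir3473d. At an unadjusted p under 0.05, 1277 genes differed (11.6%), 470 of them with the higher level in Test1. The median difference over all tested genes was -0.05. When the libraries were scaled to their FPKM sum this median was 0.04, and 16 genes were higher in Test1 and 2 in Test2.

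**Figure D1:**
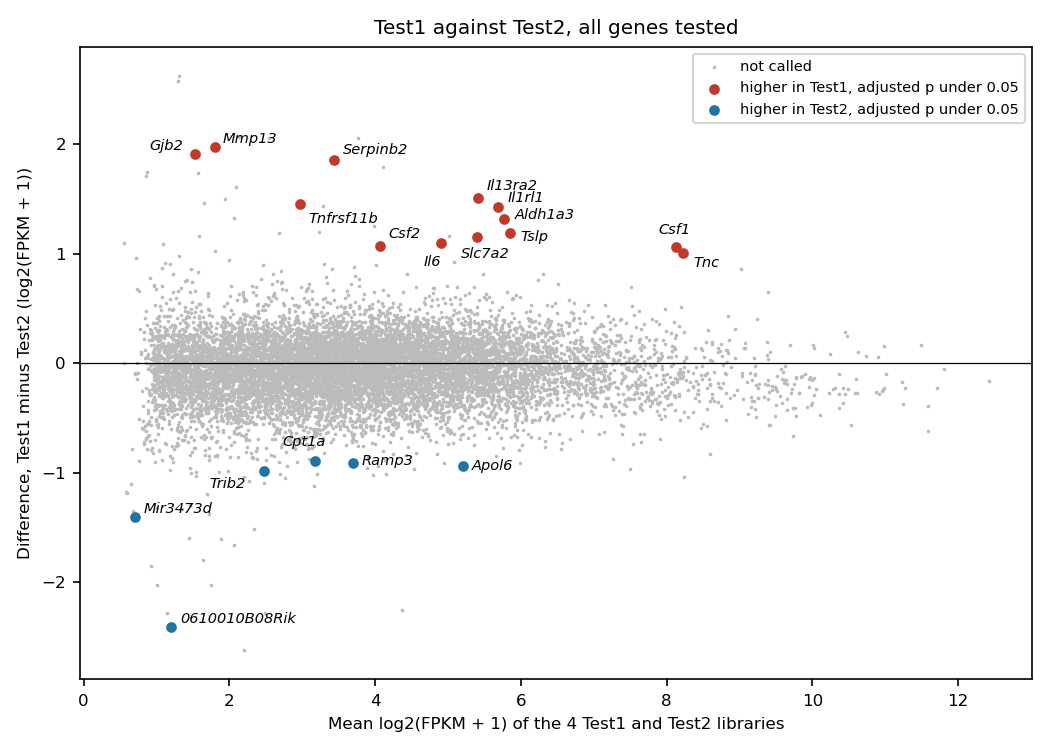
Difference between Test1 and Test2 on the log2(FPKM + 1) scale against the mean level of the 4 libraries, 1 point per tested gene. Red points are the 13 genes higher in Test1 and blue points the 6 higher in Test2, and grey points did not pass the test. The 13 span low levels (Mmp13, Gjb2) to high ones (Csf1, Tnc).

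Of the 10 pairs of sets in the same fit, Test1 against Test2 had the fewest calls, 19 (0.172%). Test3 against Test2 had 723 (6.56%) and Test3 against Test1 had 300 (2.72%). Against Control, 268 genes were called for Test1 (2.43%) and 64 for Test2 (0.58%), and these contrasts share the Control libraries. The numbers for Test1 and Test2 against Control were not tested against each other.

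**Figure D2:**
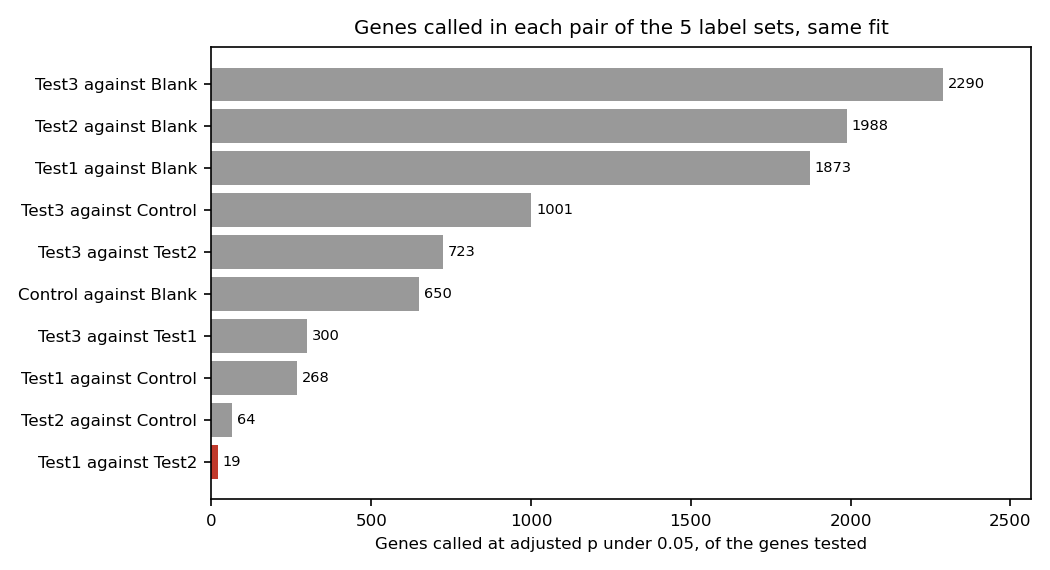
Number of genes called at adjusted p under 0.05 in each pair of the 5 label sets, of 11028 tested genes, in the same fit of 10 libraries. The red bar, Test1 against Test2, is the shortest at 19 genes, and the longest is Test3 against Blank at 2290 (20.8%).

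Il13ra2, Il1rl1 and Serpinb2, from the list of receptors and targets of IL-4 and IL-13, were called higher in Test1. Il13ra2 encodes a receptor chain that binds IL-13 tightly and is known as a decoy. Il13ra2 (chrX:147383478-147429192, GRCm38.p6) was at 80.3 and 63.0 FPKM in Test1 and at 25.3 and 23.5 in Test2. The sets did not overlap, and the level was 2.94 times as high in Test1 (log2 difference 1.51 ± 0.15, SE, adjusted p = 0.00559 from limma). Il1rl1 encodes ST2, the receptor for the alarmin IL-33. Il1rl1 (chr1:40404864-40465418) was at 76.5 and 90.6 FPKM in Test1 and at 28.6 and 32.0 in Test2, a log2 difference of 1.43 ± 0.14 (SE, adjusted p = 0.00559 from limma), again without overlap. Serpinb2, plasminogen activator inhibitor 2 (chr1:107500892-107525600), was at 22.0 and 17.5 FPKM in Test1 and 4.13 and 5.35 in Test2, a log2 difference of 1.85 ± 0.22 (SE, adjusted p = 0.0106 from limma). Its sets did not overlap either. All 3 calls were lost without Test2-1 (adjusted p = 0.14, 0.14 and 0.222), Il13ra2 and Serpinb2 also without Test2-2 (0.0716 for each), and Serpinb2 without Test1-1 (0.0774) and with no filter.

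Of the 27 listed IL-4 and IL-13 genes, 8 were tested, 3 of these were called, all higher in Test1 (beside 0.118% of all tested genes), and 6 had higher values in both Test1 libraries than in either Test2 library, beside 15.9% of all tested genes. Their median difference was 0.76, against -0.05 over all genes, and fell to 0.12 over the 16 members tested when every gene above 0 in any of the 4 libraries was admitted. All gene lists were chosen with earlier results of these data known, so counts and medians within them are a description. The median of the 8 includes the 3 called genes. The other 5 members were not called and are named here to complete the list. Il24, a cytokine of the IL-10 family, was at 41.9 and 53.9 FPKM in Test1 and 23.8 and 18.1 in Test2 (log2 difference 1.16, adjusted p = 0.08 from limma). Il24 passed when libraries were scaled to the FPKM sum or to equal medians, after quantile normalization, with trends on GC content and length removed and with the library number as a block within the 4 libraries. The signaling chains differed less: Il13ra1 was at 52.2 and 46.6 FPKM in Test1 and 35.7 and 41.0 in Test2 (0.36, 95% interval 0.05 to 0.67, adjusted p = 0.377). Il4ra was at 12.5 and 16.3 against 11.4 and 11.6 FPKM (0.29, interval -0.13 to 0.71). Tgm2, a transglutaminase, and Postn, periostin, had differences of -0.18 and 0.05 with overlapping libraries. The decoy and ST2 genes were thus called while the chains of the signaling receptor were not, and the difference between these genes was not tested.

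**Figure D3:**
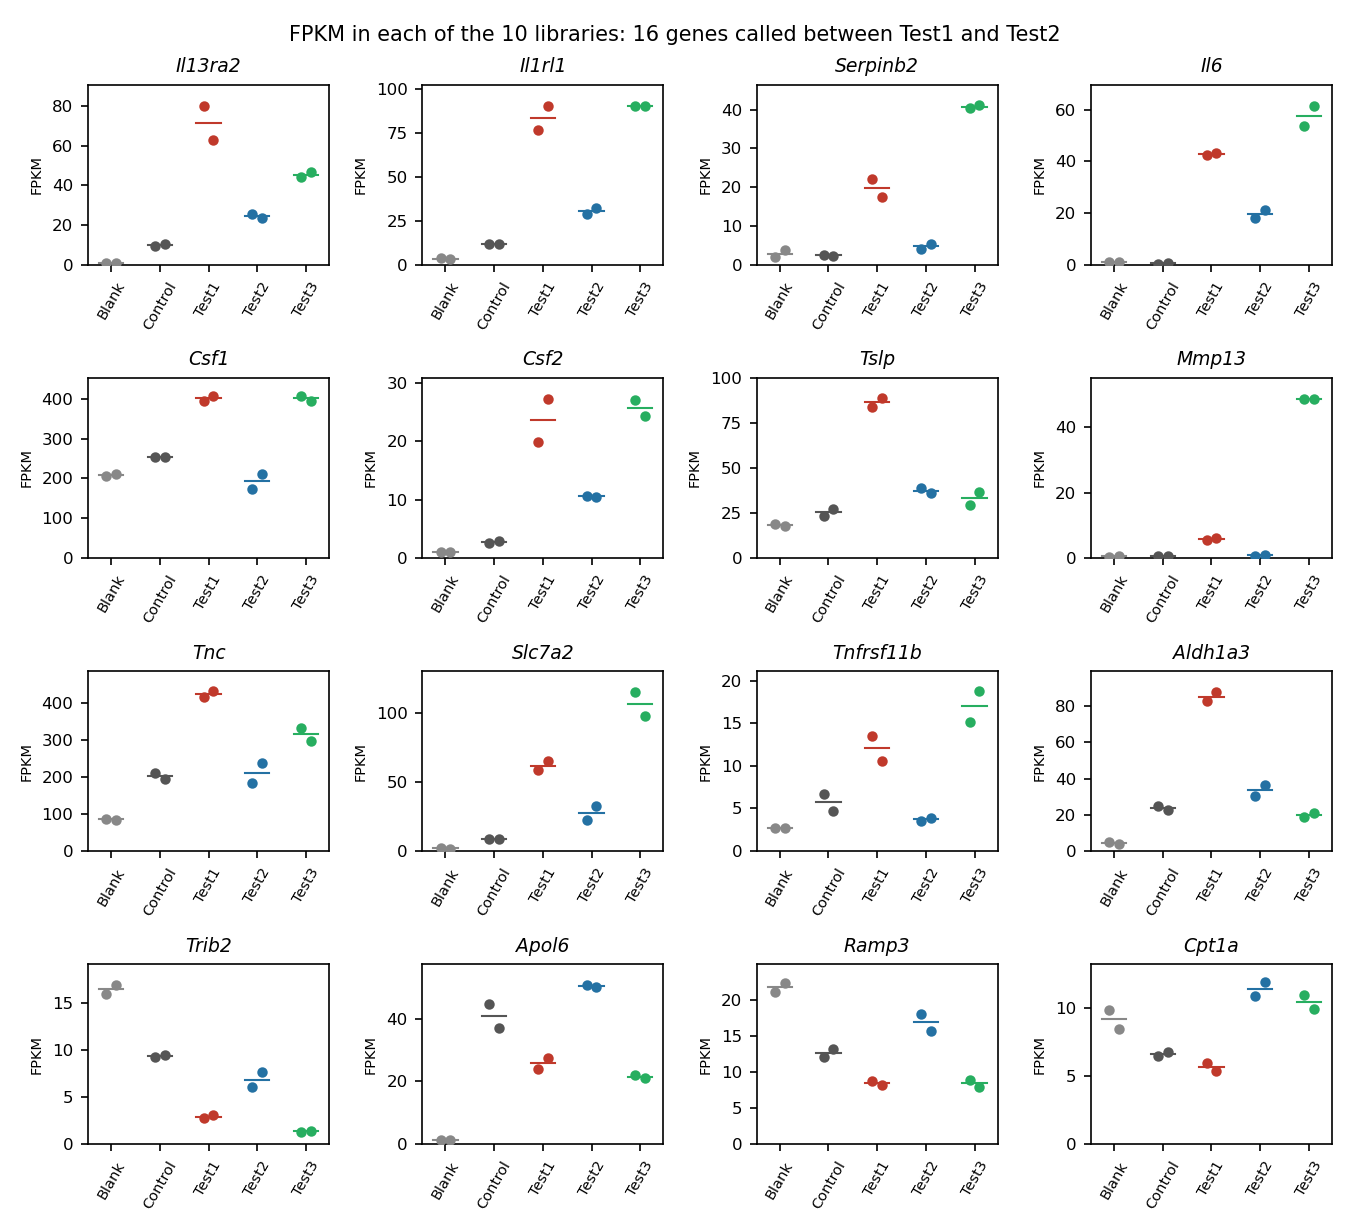
FPKM of 16 genes called between Test1 and Test2, in each of the 10 libraries, with a line at the mean of each set and axes that start at 0. In the first 12 panels both Test1 points lie above both Test2 points, and in the last 4 (Trib2, Apol6, Ramp3, Cpt1a) they lie below.

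Among 35 tested cytokine and growth factor genes, 4 were higher in Test1 and none in Test2, beside 0.118% and 0.0544% of all tested genes, and the median of the list was 0.09. Il6 (chr5:30013114-30019975), a cytokine of acute inflammation, was at 42.3 and 43.1 FPKM in Test1 and 18.0 and 21.0 in Test2. The Il6 level was 2.19 times as high in Test1 (log2 difference 1.10 ± 0.14, SE, adjusted p = 0.0134 from limma), while in Control it was 0.36 and 0.52 FPKM. Csf1 (chr3:107741048-107760469), the growth factor of macrophages, was at 396 and 409 FPKM in Test1 and 173 and 212 in Test2 (log2 difference 1.06, SE 0.13, adjusted p = 0.0106 from limma). The 2 Control libraries, at 254 and 255 FPKM, lay between the sets for Csf1. Csf2 (chr11:54247270-54249899) encodes GM-CSF, which acts on granulocytes and macrophages. Csf2 was at 19.9 and 27.3 FPKM in Test1 and 10.7 and 10.5 in Test2 (log2 difference 1.07, SE 0.16, adjusted p = 0.0366 from limma). Tslp (chr18:32815383-32819799), the epithelial cytokine with which the T cells had been stimulated, was at 84.0 and 89.2 FPKM in Test1 and 39.0 and 35.8 in Test2 (log2 difference 1.19, SE 0.14, adjusted p = 0.0106 from limma). No library of another set reached the Tslp level of Test1, and the 2 Test3 libraries were at 29.6 and 36.8 FPKM.

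Other members of the cytokine list missed the threshold. Il1a, an interleukin 1 ligand, was at 2.87 and 2.13 FPKM in Test1 and 0.65 and 0.88 in Test2 (log2 difference 0.98, adjusted p = 0.0935 from limma). Il1a passed after quantile normalization, without the trend of the spread, with trends on GC content and length removed and with the library number as a block within the 4 libraries. It reached the FPKM minimum in Test1 alone, which favors a difference in that direction, so these passes are no independent sign of one. Csf3, which encodes G-CSF, was at 134 and 233 FPKM in Test1 and 222 and 179 in Test2, a difference of -0.17 with an interval from -0.84 to 0.49. Vegfa, an angiogenic factor, differed by 0.24 (interval -0.04 to 0.52). The Csf3 libraries of the sets overlapped. The calls of Il6, Csf1 and Tslp were lost without Test1-1, Test1-2 or Test2-1, those of Il6 and Tslp also without Test2-2, and that of Csf2 without any library (adjusted p up to 0.222, 0.14, 0.14 and 0.313). Those of Il6 and Csf2 were also lost with a pseudocount of 0.1 and with no filter, and those of Csf1 and Csf2 when only the 4 Test1 and Test2 libraries or only the 6 test libraries were fitted. That of Csf2 was also lost with the library number as a block over all sets.

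Mmp13 and Tnc, genes of proteolysis and matrix, were called higher in Test1. Mmp13 (chr9:7272514-7283333), a collagenase, was at 5.57 and 6.21 FPKM in Test1 and at 0.63 and 0.89 in Test2 (log2 difference 1.97 ± 0.16, SE, adjusted p = 0.00226 from limma). The Test2 libraries were close to Control (0.57 and 0.53 FPKM), and Test3 was at 48.6 and 48.7. At the estimated depth, the Test2 values of Mmp13 rest on about 24 and 28 fragments, and the gene passed the FPKM minimum through Test1 alone, as 48 of the tested genes did, so its call is no independent sign of a difference. Its call was lost only without Test2-1 (adjusted p = 0.0727), among the libraries left out. Tnc (chr4:63959785-64047015), tenascin C, a glycoprotein of remodeled matrix, was at 415 and 433 FPKM in Test1 and 185 and 239 in Test2. Its log2 difference was 1.01 ± 0.14 (SE, adjusted p = 0.0254 from limma), with no overlap, and Control at 210 and 195 FPKM lay at the Test2 level. The call of Tnc was lost without either Blank or Test1 library or without Test2-1 (adjusted p up to 0.222). It was also lost with no filter, in the fits of the 4 Test1 and Test2 libraries and of the 6 test libraries, and with the library number as a block over all sets.

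Of 24 tested matrix metalloproteinase, plasminogen and inhibitor genes, Mmp13 and Serpinb2 were called, both higher in Test1 as 0.118% of all tested genes were, and the median was 0.13. Mmp10 and Mmp3, stromelysins, were at 14.3 and 12.2 and at 15.7 and 18.1 FPKM in Test1 and at 5.01 and 5.38 and 9.87 and 9.16 in Test2. Their log2 differences of 1.20 and 0.76 missed the threshold (limma, adjusted p = 0.125 and 0.223). Mmp10 passed in the fits of the 4 Test1 and Test2 libraries (with and without the block) and of the 6 test libraries, without either Control library and with trends on GC content and length removed. Timp1, an inhibitor of these enzymes, was at 674 and 1045 FPKM in Test1 and 580 and 490 in Test2 (0.65, adjusted p = 0.343). In each of these 3 genes both Test1 libraries were above both Test2 libraries. The list of collagens, laminins and matrix glycoproteins does not hold Tnc, which stands in the mesenchymal list. None of its 34 tested genes was called, and their median was 0.04. Mgp, matrix Gla protein, was at 154 and 285 FPKM in Test1 and 456 and 410 in Test2 (-1.04, adjusted p = 0.3 from limma), and Col5a3, a collagen V chain, at 1.15 and 1.11 against 0.38 and 0.31 (0.66, adjusted p = 0.29). Col5a3 passed the FPKM minimum through Test1 alone.

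The remaining genes higher in Test1 belong to varied functions. Aldh1a3 (chr7:66390892-66427477), which makes retinoic acid, was at 82.7 and 87.9 FPKM in Test1 and 30.6 and 36.7 in Test2 (log2 difference 1.32, SE 0.15, adjusted p = 0.0106 from limma). Its Test1 level was above that of every other set, with Test3 at 18.6 and 21.0 FPKM. Tnfrsf11b (chr15:54250619-54278484), osteoprotegerin, a decoy receptor for the TNF family ligand RANKL, was at 13.5 and 10.5 FPKM in Test1 and 3.55 and 3.91 in Test2 (log2 difference 1.45, SE 0.18, adjusted p = 0.0134 from limma). Slc7a2 (chr8:40862341-40922070), a carrier of arginine and other cationic amino acids, was at 58.6 and 65.6 FPKM in Test1 and 22.8 and 32.8 in Test2 (log2 difference 1.15, SE 0.18, adjusted p = 0.0381 from limma). Nos2, which makes nitric oxide from arginine, had overlapping libraries, at 145 and 178 FPKM in Test1 and 132 and 153 in Test2 (0.18, interval -0.19 to 0.55). Gjb2 (chr14:57098602-57104702), connexin 26, was at 5.07 and 4.16 FPKM in Test1 and 0.5 and 0.48 in Test2, about 142 and 143 against 17 and 13 fragments (log2 difference 1.91, SE 0.22, adjusted p = 0.0106 from limma). Gjb2 passed the FPKM minimum through Test1 alone, where it is high, and the same limit as for Mmp13 holds for its call. Gjb2 lies under the level set for ranked genes and was named after its values were seen. Without Test2-1 these 4 genes had adjusted p from 0.142 to 0.294, and without Test1-1 from 0.0529 to 0.145. The call was also lost without Test1-2 for Aldh1a3 (0.0554), without Test2-2 for Tnfrsf11b and Gjb2 (0.0888 and 0.0825) and without any library for Slc7a2. With a pseudocount of 0.1 the calls of Slc7a2 and Gjb2 were lost, and with no filter those of Slc7a2 and Tnfrsf11b. That of Slc7a2 was also lost in the fits of the 4 and of the 6 libraries, without the trend of the spread and with the block over all sets. Of 20 tested genes of nitric oxide, arginine and polyamines, Slc7a2 was called higher in Test1, beside 0.118% of all tested genes, and the median was 0.01. Oaz1, the antizyme that limits polyamine synthesis, was at 50.6 and 97.5 FPKM in Test1 and 136 and 109 in Test2 (-0.78, adjusted p = 0.43).

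Promoters were searched for matches to sites of factors that act downstream of these cytokines. The windows ran from 250 bases before to 50 bases after a RefSeq start (GRCm38.p6), and 9 of the 13 genes higher in Test1 and 4 of the 6 higher in Test2 had an entry. The motifs were GAS (TTCNNNGAA), the STAT6 form with a longer spacer (TTCNNNNGAA), ISRE (GAAANNGAAA), NF-kB and AP-1 (TGANTCA), on both strands. The STAT6 and AP-1 motifs were added after the calls were seen. Of all 32851 promoter windows, 8.30% held GAS, 6.95% the STAT6 form, 3.44% ISRE, 8.46% NF-kB and 7.81% AP-1. An AP-1 match was found in Mmp13, Il13ra2, Serpinb2 and Il6, 4 of the 9 genes, and an NF-kB match in Il6, Csf1 and Gjb2. GAS was found in Serpinb2 and ISRE in Mmp13, and the STAT6 form in none, which says only that these letters are not in the windows. Of the 4 genes with an entry higher in Test2, Ramp3 held an NF-kB match and no other motif was found. These counts are small and are a description of letters, not of binding. They are per gene, with a match in any of its windows, while the shares of all promoters are per window. The windows of the 4 genes with AP-1 and of Csf1 are shown 5′ to 3′ on the gene's strand, with every motif match in capitals. Those of Gjb2 and Ramp3, which also held an NF-kB match, are not shown. Serpinb2 had another, overlapping window with the same matches, also not shown.
Mmp13, chr9:7272264-7272563, plus strand, ISRE then AP-1: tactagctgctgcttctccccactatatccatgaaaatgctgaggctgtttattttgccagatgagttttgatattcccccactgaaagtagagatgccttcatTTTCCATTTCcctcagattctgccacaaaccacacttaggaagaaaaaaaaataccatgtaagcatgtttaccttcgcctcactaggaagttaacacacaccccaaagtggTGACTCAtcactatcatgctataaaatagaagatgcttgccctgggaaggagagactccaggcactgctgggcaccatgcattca
Il13ra2, chrX:147429143-147429442, minus strand, AP-1: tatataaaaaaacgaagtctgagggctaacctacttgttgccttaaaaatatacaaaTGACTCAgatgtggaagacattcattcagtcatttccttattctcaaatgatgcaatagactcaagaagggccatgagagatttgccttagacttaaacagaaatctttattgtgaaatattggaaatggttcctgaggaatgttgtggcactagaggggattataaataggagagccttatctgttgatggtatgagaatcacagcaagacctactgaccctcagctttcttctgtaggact
Serpinb2, chr1:107511173-107511472, plus strand, AP-1 then GAS: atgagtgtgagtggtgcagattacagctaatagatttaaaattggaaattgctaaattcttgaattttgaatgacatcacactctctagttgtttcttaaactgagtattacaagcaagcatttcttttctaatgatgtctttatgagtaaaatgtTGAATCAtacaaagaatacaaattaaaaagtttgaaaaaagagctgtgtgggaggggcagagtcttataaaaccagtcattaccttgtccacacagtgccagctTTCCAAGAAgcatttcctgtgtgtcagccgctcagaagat
Il6, chr5:30012864-30013163, plus strand, AP-1 then NF-kB: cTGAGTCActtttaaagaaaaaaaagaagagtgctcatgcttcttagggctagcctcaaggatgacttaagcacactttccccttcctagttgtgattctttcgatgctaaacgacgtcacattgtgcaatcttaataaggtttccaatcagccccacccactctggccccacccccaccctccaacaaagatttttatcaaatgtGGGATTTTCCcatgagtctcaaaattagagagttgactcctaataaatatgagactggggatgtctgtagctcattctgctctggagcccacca
Csf1, chr3:107760420-107760719, minus strand, NF-kB: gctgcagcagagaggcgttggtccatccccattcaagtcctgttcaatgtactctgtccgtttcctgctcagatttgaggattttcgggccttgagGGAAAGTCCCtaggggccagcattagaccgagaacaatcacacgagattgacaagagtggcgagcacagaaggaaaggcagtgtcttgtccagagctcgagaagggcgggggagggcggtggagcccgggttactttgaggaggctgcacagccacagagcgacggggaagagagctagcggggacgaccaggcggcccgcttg
The AP-1 match of Mmp13 began 35 bases before the start and the NF-kB match of Il6 44 bases before it.

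The 6 genes higher in Test2 formed no fixed list. Trib2 (chr12:15791725-15816962), a pseudokinase that promotes protein degradation, was at 2.81 and 3.06 FPKM in Test1 and 6.03 and 7.65 in Test2 (log2 difference -0.99, SE 0.15, adjusted p = 0.0331 from limma). Apol6 (chr15:77045050-77057108), an apolipoprotein L family gene, was at 24.0 and 27.5 FPKM in Test1 and 50.6 and 50.1 in Test2 (-0.94, SE 0.13, adjusted p = 0.0254). Ramp3 (chr11:6658506-6677478), which modifies receptors of the calcitonin and adrenomedullin family, was at 8.76 and 8.15 FPKM in Test1 and 18.0 and 15.7 in Test2 (-0.92, SE 0.13, adjusted p = 0.0254). In each of these genes the sets did not overlap. Cpt1a (chr19:3322326-3385735), the carnitine palmitoyltransferase that admits long-chain fatty acids to mitochondria, was at 5.95 and 5.36 FPKM in Test1 and 10.9 and 11.9 in Test2 (-0.90, SE 0.14, adjusted p = 0.0366). These 4 calls were also lost without either Blank library, Test1-1, Test1-2, Test2-1 or Test2-2 (adjusted p up to 0.278) and when libraries were scaled to the FPKM sum, and those of Trib2 and Cpt1a without any library. All 4 were also lost with no filter, in the fits of the 4 and of the 6 libraries and with the block over all sets. That of Ramp3 was lost with trends on GC content and length removed (with and without the block), that of Trib2 with a pseudocount of 5, and that of Cpt1a with equal medians and after quantile normalization. The gene model 0610010B08Rik was listed at 0 in both Test1 libraries and at 3.74 and 4.97 FPKM in Test2 (adjusted p = 0.0133). Mir3473d was listed at 0 in all libraries but Test2, at 1.49 and 1.82 FPKM, which is about 2 fragments in each. Both passed the FPKM minimum through Test2 alone, as 89 tested genes did, and were named after their values were seen. Their calls were lost without any 1 of the 4 Test1 and Test2 libraries, that of 0610010B08Rik also with no filter and with trends on GC content and length removed under the block. That of Mir3473d was also lost without either Blank or either Control library, with a pseudocount of 0.1, after quantile normalization, in the fit of the 6 test libraries, with the block over all sets and with trends on GC content and length removed (with and without the block).

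The levels of these genes in Test3 and Control, which the difference between Test1 and Test2 does not use, were then compared. Of the 11 genes higher in Test1 that reached the FPKM minimum in both sets, 9 were also higher in Test3 than in Control and none was lower, beside 4.24% of all tested genes that were higher. Mmp13 and Gjb2 were higher in Test3 as well. The contrast shares the estimate of spread with the first, so Test3 and Control also bore on which genes were called. All 11 genes were called higher in Test1 than in Control as well, and Test3 too was in test supernatant. The share of all tested genes is thus no matched baseline, and the count is a description. The differences of Test3 minus Control were 5.35 for Il6, 3.63 for Serpinb2 and 3.49 for Slc7a2 on the log2 scale (adjusted p = 3.54e-08, 9.38e-06 and 2.87e-06 from limma). Tslp and Aldh1a3 were the exceptions, with differences of 0.38 and -0.25 (adjusted p = 0.12 and 0.32). Of the 6 genes higher in Test2, 2 of which reached the minimum in Test2 alone, Trib2, Apol6 and Ramp3 were lower in Test3 than in Control (-2.13, -0.88 and -0.54), beside 4.83% of all tested genes, and Cpt1a was higher (0.58).

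Against Control, Test1 and Test2 gave these values side by side, with Control shared by both. Il13ra2 differed from Control by 2.75 in Test1 and 1.25 in Test2, Il1rl1 by 2.71 and 1.28, and Il6 by 4.93 and 3.83. Of the 11 genes at the minimum in both sets, 11 were called higher than Control in Test1 (beside 1.47% of all tested genes) and 5 in Test2 (beside 0.499%), namely Il1rl1, Il13ra2, Il6, Csf2 and Slc7a2. In 2 of these 11 genes, Csf1 and Tnfrsf11b, the Test2 mean was below the Control mean, as it was in Gjb2, which is set apart. The genes were chosen by Test1 against Test2, so their call rates against Control are a description.

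The lists of chemokines and of TNF receptors and the NF-kB pathway had no called member under the reported settings. The decoy receptor gene Tnfrsf11b, called higher in Test1, is in neither list. The median over 16 chemokines was 0.33 and over 34 TNF receptor and NF-kB genes 0.11, and 10 and 17 members had both Test1 libraries above both Test2 libraries, where 15.9% of all tested genes did. The chemokine count includes Cxcl3, which entered through Test1 alone, so the filter adds to it. Over the 11 chemokines with at least 1 FPKM in all 4 libraries the median was 0.34. Cxcl2, which attracts neutrophils, was at 2.68 and 4.51 FPKM in Test1 and 0.81 and 1.24 in Test2 (log2 difference 1.16, adjusted p = 0.0935 from limma). Nfkbia, the inhibitor that NF-kB induces against itself, was at 121 and 111 FPKM in Test1 and 76.3 and 63.7 in Test2 (0.72, adjusted p = 0.08). Nfkbia passed when libraries were scaled to the FPKM sum and with trends on GC content and length removed, Cxcl2 with the block within the 4 libraries, and both genes after quantile normalization. Cxcl3, a relative of Cxcl2, was at 1.29 and 1.28 FPKM in Test1 and 0.28 and 0.08 in Test2 (0.96, adjusted p = 0.27), and passed the minimum through Test1 alone. Nfkbie, another NF-kB inhibitor, was at 15.5 and 17.8 against 10.0 and 9.53 FPKM (0.71, adjusted p = 0.163). With trends on GC content and length removed, Nfkbie passed, as did Nfkb1, Nfkb2, Relb, Tnfaip3, Traf1 and Ripk2. The chemokine genes Ccl5, Cxcl12 and Cxcl16 also passed under that setting, so the absence of calls depends on the processing. Cxcl10 and Cxcl9, chemokines induced by IFN-gamma, had differences of 0.25 (interval -0.08 to 0.57) and -0.07 (interval -0.47 to 0.34). Ccl2, which attracts monocytes, was at 413 and 725 FPKM in Test1 and 446 and 435 in Test2. The receptor genes Tnfrsf1a and Tnfrsf1b had differences of -0.52 and -0.42 (adjusted p = 0.361 and 0.442).

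**Figure D4:**
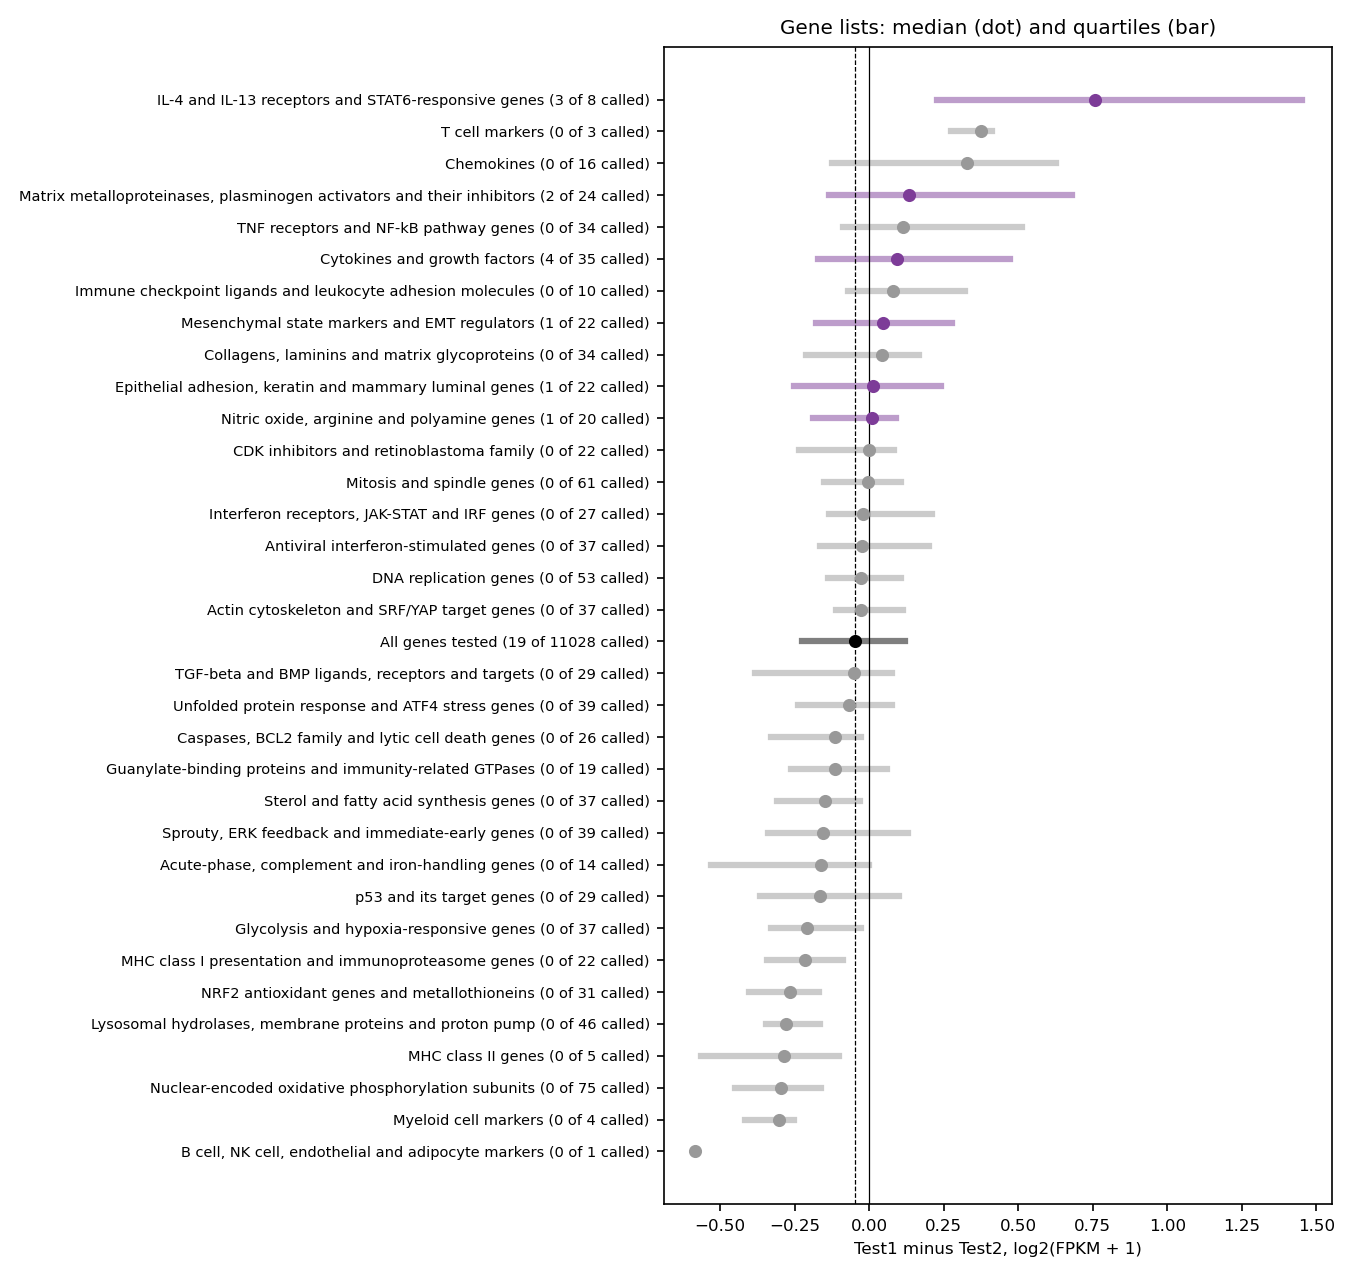
Median (dot) and quartiles (bar) of the difference between Test1 and Test2 over the tested members of each gene list, with the number of calls beside its name. Purple marks lists with a called member, black all tested genes (dashed line at its median of -0.05). The list of IL-4 and IL-13 genes lies furthest to the right among lists with a call, at 0.76 with 8 members tested, which becomes 0.12 with no filter. The lists were chosen with earlier results of these data known.

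Interferon and antigen presentation genes had no call. The medians were -0.02 for 27 interferon receptor, JAK-STAT and IRF genes, -0.02 for 37 antiviral genes, -0.12 for 19 guanylate-binding protein and GTPase genes and -0.22 for 22 genes of MHC class I presentation. In 10 of these 22 (45.5%) both Test2 libraries lay above both Test1 libraries, beside 26% of all tested genes. Irf1, an interferon-induced transcription factor, differed by 0.17 (interval -0.06 to 0.41), and Irf5 and the cytokine signaling suppressor Socs2 by 0.62 and 0.45 (adjusted p = 0.239 and 0.349). H2-T23, a nonclassical class I gene, was at 38.3 and 43.4 FPKM in Test1 and 68.1 and 64.0 in Test2 (-0.68, adjusted p = 0.077 from limma), and H2-T22 at 19.5 and 26.3 against 37.0 and 30.7 FPKM (-0.55, adjusted p = 0.3). Members of the GTPase list lay on both sides. Ifi47 was at 116 and 152 FPKM in Test1 and 229 and 191 in Test2 (-0.65, adjusted p = 0.213), while F830016B08Rik was at 29.2 and 26.4 against 12.3 and 19.1 (0.81, adjusted p = 0.186). In the antiviral list, Ifi205 and Ifi202b differed by 0.65 and 0.68 (adjusted p = 0.361 and 0.44), and Ifi202b passed the FPKM minimum through Test1 alone. Of MHC class II genes, 5 were tested, with a median of -0.28. Ciita, the master regulator of these genes, was at 0.39 and 1.07 FPKM in Test1 and 2.04 and 2.07 in Test2 (-0.85, adjusted p = 0.211), and H2-DMa differed by -0.56 (adjusted p = 0.391). H2-DMa passed the FPKM minimum through Test2 alone. The interferon-gamma receptor genes Ifngr1 and Ifngr2 overlapped between the sets, with differences of -0.08 and 0.05. Cd274, the checkpoint ligand PD-L1, was at 17.3 and 18.8 FPKM in Test1 and 17.1 and 19.6 in Test2, a difference of -0.02 with an interval from -0.37 to 0.33. Over the 10 tested checkpoint ligands and leukocyte adhesion molecules the median was 0.08. The adhesion molecule Vcam1 was at 7.63 and 7.45 FPKM in Test1 and 3.59 and 4.69 in Test2 (0.74, adjusted p = 0.154), and Icam1 differed by 0.46 (adjusted p = 0.373).

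Proliferation genes were not called either, with medians of -0.03 over 53 DNA replication genes and -0.01 over 61 mitosis genes. The members furthest from 0 lay on the Test2 side, with Rpa3 and Tk1 of replication at -0.57 and -0.47 and Cdca3 and Cenpa of mitosis at -0.49 and -0.52 (adjusted p = 0.377 to 0.444 from limma). Mki67 was at 92.8 and 76.2 FPKM in Test1 and 56.9 and 84.4 in Test2 (0.27, interval -0.13 to 0.68). Mcm2 and Ccnb1 had differences of -0.10 (interval -0.36 to 0.16) and -0.06 (interval -0.34 to 0.22). Of the CDK inhibitors, Cdkn1a differed by -0.24 (interval -0.57 to 0.10) and Cdkn1b by -0.34 (adjusted p = 0.366), and Trp53 and Mdm2 by -0.28 and -0.07. Over the 22 tested CDK inhibitor and retinoblastoma family genes the median lay within 0.01 of 0, with Cdkn2d at -0.42 and Cdk6 at 0.40 (adjusted p = 0.416 and 0.512). Of 22 tested epithelial genes Aldh1a3 was called and of 22 tested mesenchymal genes Tnc, both higher in Test1, beside 0.118% of all tested genes, and the medians of these lists were 0.01 and 0.05. Jup, plakoglobin of cell junctions, was at 16.1 and 17.4 FPKM in Test1 and 23.8 and 24.8 in Test2 (-0.51, adjusted p = 0.27). Pdgfrb, which binds platelet-derived growth factors, was at 5.01 and 5.89 against 9.15 and 10.5 FPKM (-0.75, adjusted p = 0.125). Pdgfrb passed with trends on GC content and length removed. Cdh1, Krt8, Krt18, Epcam and Vim had differences of 0.47, -0.14, -0.27, -0.11 and -0.10 (adjusted p = 0.282 to 0.84).

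Signaling and stress lists had no call. The 29 tested p53 genes had a median of -0.17, and their members furthest from 0 were Trp53inp1, at 2.56 and 2.83 FPKM in Test1 and 4.79 and 6.71 in Test2 (-0.86, adjusted p = 0.102 from limma), and the cell death gene Bbc3 (PUMA), at 1.41 and 1.52 against 3.61 and 3.28 (-0.85, adjusted p = 0.138). The 26 tested caspase, BCL2 family and lytic death genes had a median of -0.11. Bcl2l1, which encodes the survival protein BCL-XL, was at 42.2 and 51.5 FPKM in Test1 and 80.4 and 68.5 in Test2 (-0.66, adjusted p = 0.15). The libraries of Bbc3 and of Bcl2l1 did not overlap between the sets, though neither gene passed the test under the reported settings. Bcl2l1 and Trp53inp1 passed with trends on GC content and length removed, and Bbc3 with the library number as a block within the 4 libraries. The 39 tested ERK feedback and immediate-early genes had a median of -0.16, with the feedback inhibitor Spry1 at 2.1 and 4.61 against 6.81 and 6.55 FPKM (-0.88, adjusted p = 0.239). The 29 tested TGF-beta and BMP genes had a median of -0.05, with Ltbp2, a latent TGF-beta binding protein family member, at 50.5 and 67.4 against 29.96 and 35.67 FPKM (0.82, adjusted p = 0.158). Over 39 unfolded protein response and ATF4 genes the median was -0.07, and the sensor Ern1 (IRE1) and the ATF4 target Chac1 differed by 0.65 and -0.56 (adjusted p = 0.347 and 0.448). Over 37 actin, SRF and YAP genes it was -0.03, and the myosin light chain gene Myl9 differed by -0.70 (adjusted p = 0.431).

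Some lists had medians below that of all genes without a call. In lysosomal genes 30 of 46 (65.2%), in NRF2 antioxidant and metallothionein genes 19 of 31 (61.3%), in glycolysis and hypoxia genes 18 of 37 (48.6%) and in sterol and fatty acid synthesis genes 16 of 37 (43.2%) had both Test2 libraries above both Test1 libraries, beside 26% of all tested genes. The medians of the last 2 lists were -0.21 and -0.15. These and the other counts of genes without overlap used FPKM as deposited, in which Test2-1 had the highest sum (487591). With libraries scaled to their FPKM sum, the median over all tested genes moved from -0.05 to 0.04. The counts were not repeated on that scale. Insig1, which holds back sterol synthesis, was at 35.7 and 37.1 FPKM in Test1 and 57.1 and 54.1 in Test2 (-0.60, adjusted p = 0.172 from limma), and Insig2 differed by -0.56 (adjusted p = 0.231). The hypoxia-induced gene Ankrd37 was at 0.28 and 0.9 against 1.42 and 2.02 FPKM (-0.79, adjusted p = 0.326), and passed the FPKM minimum through Test2 alone. Nuclear-encoded oxidative phosphorylation subunits had a median of -0.30, with 72 of 75 genes below 0 beside 57.7% of all tested genes. In 19 of the 75 both Test2 libraries lay above both Test1 libraries, beside 26% of all tested genes. Ndufb2, a complex I subunit, was at 9.76 and 12.4 FPKM in Test1 and 26.0 and 13.8 in Test2, so Test2-1 stood above the other 3. Uqcrq, of complex III, was at 54.2 and 115 FPKM in Test1 and 156 and 106 in Test2, with overlap. The median of this list was -0.10 without Test2-1, -0.51 without Test2-2 and -0.09 after each library's trends on GC content and length were removed. Lysosomal genes had a median of -0.28 with 40 of 46 below 0, and -0.17 after the trends were removed. Map1lc3b, an autophagosome protein, was at 52.1 and 58.1 FPKM in Test1 and 85.2 and 72.4 in Test2 (-0.51, adjusted p = 0.217 from limma), and Tfeb, the regulator of lysosomal genes, differed by -0.54 (adjusted p = 0.406). NRF2 antioxidant and metallothionein genes had a median of -0.27, and their member Mgst1, a membrane glutathione transferase, was at 49.7 and 47.8 against 86.5 and 78.6 FPKM (-0.75, adjusted p = 0.069). The metallothionein Mt3 differed by -0.84 (adjusted p = 0.442). Over the 14 tested acute-phase, complement and iron-handling genes the median was -0.16, and the metalloreductase Steap4 differed by -0.70 (adjusted p = 0.286). Lcn2, an iron-binding acute-phase protein, was at 112 and 149 FPKM in Test1 and 287 and 223 in Test2 (-0.97, adjusted p = 0.118). All of these differences are values, not calls. Lcn2 and Mgst1 passed with trends on GC content and length removed, and Lcn2 also with the library number as a block within the 4 libraries.

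Every call depended on Test2-1, the library with the highest FPKM sum. Without it no gene was called in either direction (561 at an unadjusted p under 0.05), while all 19 differences kept their sign and the 13 higher in Test1 ran from 0.83 to 1.92. Without the other Test2 library 5 genes were higher in Test1 and none in Test2, without Test1-1 3 and 1, and without Test1-2 6 and 2. Leaving out a library of Blank, Control or Test3 in turn kept 11 of the 19 calls throughout. These fits have fewer samples and a set with a lone library, whose spread was taken from the other sets. Of the defining markers of other cell types, Cd3d and Cd68 were high enough to be tested, and neither was called. In the longer marker lists, the 3 T cell markers tested had a median difference of 0.37 on the log2(FPKM + 1) scale, all on the Test1 side, and the 4 myeloid markers tested had a median of -0.30, all on the Test2 side, with none called. The members furthest from 0 were Cd3d and Cd247 (0.45 and 0.37) and Cd14 and S100a8 (-0.65 and -0.34), and the adipocyte marker Fabp4 differed by -0.59. Cd3d came to -0.01 without Test1-1, and Cd247 to -0.01 without Test2-1. Summed myeloid markers (4 genes, nearly all Cd68) were at 6.69 to 10.1 FPKM in Test1 and 9.69 to 9.78 in Test2. Summed T cell markers (2 genes, nearly all Cd3d) were at 2.5 to 5.67 and 2.32 to 3.04 FPKM, and the sets overlapped in both sums. Summed B cell, endothelial and fibroblast markers were at up to 0.15, 0.64 and 1.78 FPKM. Their part in the results was not tested.

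**Figure D5:**
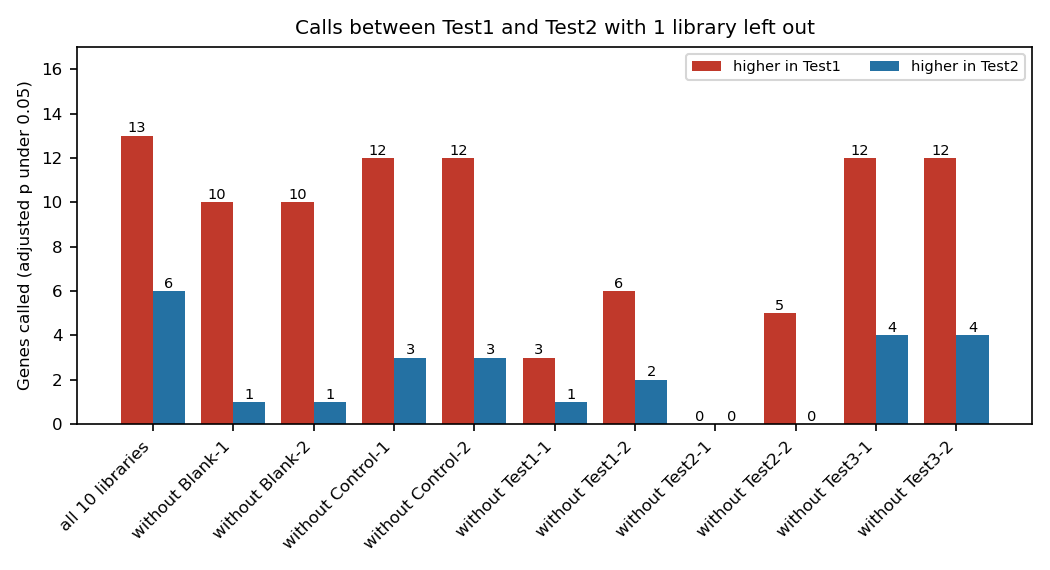
Genes called between Test1 and Test2 with all 10 libraries and with each library left out, red for those higher in Test1 and blue for those higher in Test2. The bars fall from 13 and 6 to 0 and 0 without Test2-1.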

How the data were processed

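The authors deposited 1 table of FPKM values with 2 decimals, 1 column per library and no read counts. Per the labels and the study's methods, sequencing was done at BGI (Illumina HiSeq) and Bowtie aligned the reads to mm10. Not given in the sources used here were its version, the FPKM program, the annotation and any filter. The methods name a Poisson method, Noiseq and EBSeq, which need counts, so limma was used.

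Of 17171 genes, 17113 were matched by gene number to RefSeq GRCm38.p6, and 24 symbols that had become dates were restored. FPKM was transformed to log2 with a pseudocount of 1, and the 11028 genes that reached 1 FPKM in 2 or more of the 4 libraries entered 1 fit of all 10 libraries with the 5 label sets as groups. The fit used limma 3.58.1 (R 4.3.3) with a trended prior and two-sided moderated tests, adjusted after Benjamini and Hochberg and called at 0.05. Intervals are 95% intervals of that fit. No column of values was left out. Tables were handled in Python 3.11.15 (pandas 2.3.3) and plotted in matplotlib 3.10.9.

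FPKM keeps no totals. Depth was estimated from the spacing of low FPKM multiplied by transcript length (GENCODE transcripts of the same build) in genes with 1 listed transcript of 400 to 2500 bases, and fragment numbers of single genes are approximate.

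The members and the 33 gene lists (1168 genes, 1098 in the table) were chosen with earlier results of these data known. Named genes were called genes without overlap, with at least 5 FPKM in the higher set and a name, up to 15 in each direction, then up to 6 called members of each list or the 2 with the largest difference, and also 40 genes given whatever their test, of which Adgre1, Pdcd1 and Ptprc were not analysed here and 1 other gene is not reported here. Members of the lists that no sentence names stay within their list's count. Varied settings were the pseudocount, filter and scaling, the libraries in the fit, the trend of the spread, GC content and length, the library number as a block, each library left out and the threshold. Same-numbered libraries of Test1 and Test2 deviated from their set means with a correlation of -0.20 (-0.51 to 0.27 over the 10 pairs of sets), so numbers were not used as pairs.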

Additional observations from a re-analysis of the deposited data

How the results depend on the processing

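No called gene changed sign between Test1 and Test2 under any alternative, but 16 of the 104 named genes, none of them called, did under at least 1 (29 of 2867 values, adjusted p from limma at least 0.703). Csf3 was at 0.22 without Test1-1 (-0.17 as reported), Ccl2 at -0.09 without Test1-2 (0.31) and Cd274 at 0.07 with libraries scaled to the FPKM sum (-0.02). Of the named genes not called, 29 passed under at least 1 alternative, 14 of them with trends on GC content and length removed and 13 only with a block within the 4 libraries. On the Test1 side, those 14 were Il1a (at the FPKM minimum in Test1 alone), Ltbp2, Mmp10, Nfkbia, Nfkbie, Timp1 and Vcam1. On the Test2 side they were Bcl2l1, Bnip3, Ctgf, Lcn2, Mgst1, Pdgfrb and Trp53inp1. Counts below give genes higher in Test1 and then in Test2, 13 and 6 as reported. They were 9 and 5 with a pseudocount of 0.1, 13 and 4 with only the 4 Test1 and Test2 libraries fitted (11 of the 19 calls kept), 7 and 1 with no filter beyond a value above 0, 16 and 2 with libraries scaled to the FPKM sum (88.9% of calls higher in Test1, against 68.4% as reported), 21 and 4 after quantile normalization (84% higher in Test1), 10 and 2 with the 6 test libraries alone, 60 and 30 with trends on GC content and length removed, and 3 and 0 at an adjusted p under 0.01. With equal medians they were 17 and 5 (77.3%). They were 11 and 4 among genes with 1 FPKM in a library of each set, an alternative added after the data were seen. Leaving out 1 library gave 0 to 12 genes higher in Test1 and 0 to 4 higher in Test2. With the number as a replicate block, they were 10 and 1 over all sets, 45 and 65 within the 4 libraries, and 26 and 7 with the GC content and length trends also removed. The block crossed between Test1 and Test2, added after the data were seen, gave 63 and 124 within the 4 libraries. With 2 numbers, the block within 4 libraries leaves 1 residual degree of freedom. The cause of these changes was not tested. Of the medians of lists, 61 of 837 values under alternatives moved beyond their spread. Counts of low genes are limited by depth, most in short genes. By the estimate, Gjb2 in Test2 rests on about 17 and 13 fragments at 0.5 and 0.48 FPKM. Mir3473d, with 81 bases, rests on about 2 in each Test2 library at 1.49 and 1.82 FPKM.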

Other observations

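Further genes lay just past the threshold, at an adjusted p from limma between 0.05 and 0.1, 17 with the higher level in Test1 and 20 in Test2. Apart from Bnip3, Ctgf and Id4, which lie furthest from 0 in gene lists, those named here were chosen after their values were seen. Ptgs2, the inducible enzyme of prostaglandin synthesis, was at 714 and 690 FPKM in Test1 and 335 and 444 in Test2 (log2 difference 0.86, adjusted p = 0.0935). Adamts1, a secreted metalloproteinase, was at 13.4 and 11.7 FPKM in Test1 and 5.61 and 6.87 in Test2 (0.91, adjusted p = 0.0501). Lipg, endothelial lipase, was at 43.4 and 48.2 FPKM in Test1 and 21.7 and 25.8 in Test2 (0.92, adjusted p = 0.0501). Plau, the urokinase plasminogen activator that Serpinb2 inhibits, was at 90.2 and 105 FPKM in Test1 and 58.2 and 55.7 in Test2 (0.76, adjusted p = 0.08).

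On the other side, Plin2, which coats lipid droplets, was at 61.1 and 63.2 FPKM in Test1 and 113 and 92.8 in Test2 (-0.71, adjusted p = 0.08). Bnip3, a mitophagy receptor induced by hypoxia, was at 23.8 FPKM in both Test1 libraries and at 41.6 and 39.2 in Test2 (-0.74, adjusted p = 0.0935). Ctgf, a matricellular protein and YAP target, was at 27.6 and 34.3 FPKM in Test1 and 49.4 and 55.6 in Test2 (-0.75, adjusted p = 0.0959). Id4, an inhibitor of helix-loop-helix factors, was at 9.71 and 10.1 FPKM in Test1 and 19.4 and 15.8 in Test2 (-0.76, adjusted p = 0.08). None of these genes overlapped between the sets.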
